A study of Mus musculus with 36 samples.

Results

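Messenger RNA was measured in the cochlea, the part of the inner ear that detects sound, of adrenalectomized (ADX) mice at the start of the active phase (circadian time 12, CT12) and at the start of the rest phase (CT24). The comparison was defined by the status and time in the labels and held 3 ADX CT12 libraries and 3 ADX CT24 libraries, 6 of the 36 libraries of the series. The deposited column names of the CT12 libraries gave a time 1 h before the label, and those of the CT24 libraries the labelled time. All mice were of the strain CBA/Sca and 12 weeks old. The ADX mice had lost the adrenal glands, and sham-operated mice, which kept them, gave 3 libraries at CT12 and 3 at CT24 for the same comparison. The other libraries of the series, 3 per status at each of CT04, CT08, CT16 and CT20, entered the model as further groups.

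The circadian clock of mammalian cells is a loop of transcription factors. BMAL1 pairs with CLOCK or NPAS2, binds E-boxes and switches on the period and cryptochrome genes, whose proteins then block that pair. A second loop, in which REV-ERB proteins repress and ROR proteins activate Arntl (the gene of BMAL1), and another, in which DBP, TEF and HLF act on D-boxes against NFIL3, run beside the first. Glucocorticoids from the adrenal gland follow a daily rhythm and can act on clocks outside the brain, in part through Per1. The comparison asked which cochlear transcripts differed between the start of activity and the start of rest when the adrenal source of glucocorticoids was removed.

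Library totals ran from 20351081 to 22304626 counts in ADX CT12 and from 23972100 to 28661791 counts in ADX CT24. Sequencing depth thus went with time, and its part in the results was not tested. The first principal component of log2 CPM (counts per scaled library size) held 36.35% of the variance of the 6 libraries and placed the ADX CT12 libraries between -18.3 and -13.28 and the ADX CT24 libraries between 12.82 and 19.91. Markers of the cochlea were measured in every library: the summed CPM of 20 hair cell genes was 442 to 488 in ADX CT12 and 413 to 493 in ADX CT24, and that of 18 spiral ganglion neuron genes was 3327 to 3903 in ADX CT12 and 3122 to 3444 in ADX CT24. Transcripts of tissue outside the cochlea were present as well. The summed CPM of 16 skeletal muscle genes was 416.5, 203 and 158 in ADX CT12 replicates 1, 2 and 3, and 137, 123.4 and 133 in the ADX CT24 libraries, so the groups did not overlap. All 16 of these genes had positive log2 changes, against 10918 of all 22556 tested genes, with a median of 2.06. None of the 16 passed the test, although DESeq2 called 5. The pituitary hormone transcript Gh stood at 3.37, 0.948 and 13.6 CPM in ADX CT12 and at 60.03, 130.1 and 4.43 CPM in ADX CT24, high in ADX CT24 replicates 1 and 2. The summed CPM of pituitary genes was 2.79 to 21.8 in ADX CT12 and 6.64 to 167.8 in ADX CT24. Myh1 and Myh4, fast muscle myosins, reached 38.1 and 47.3 CPM in ADX CT12 replicate 1, against 0.183 to 0.547 CPM over both genes in the ADX CT24 libraries. The part of this tissue in the results was tested only by leaving libraries out and, for muscle, with a muscle score as covariate. In whole tissue, fewer cells of a type and less RNA per cell cannot be told apart.

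**Figure D1:**
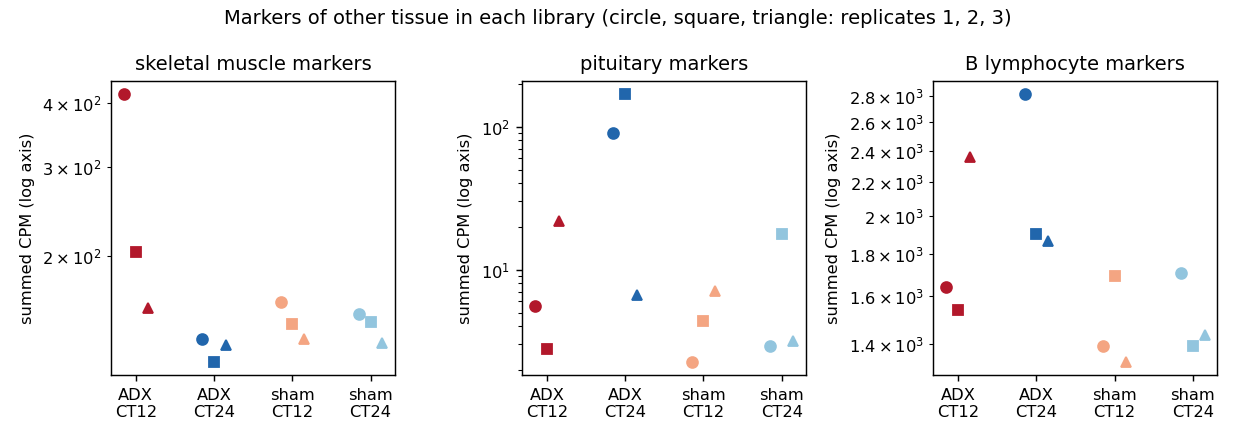
Summed CPM (log axes) of skeletal muscle, pituitary and B lymphocyte marker genes in each library of ADX CT12, ADX CT24, sham CT12 and sham CT24. ADX CT12 replicate 1 has the highest muscle sum (416.5), ADX CT24 replicates 1 and 2 have the highest pituitary sums (90.3 and 167.8), and ADX CT12 replicate 3 and ADX CT24 replicate 1 have the highest B lymphocyte sums (2362 and 2809).

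Of 22556 tested genes, 153 (0.678%) passed an adjusted p of 0.05 between ADX CT12 and ADX CT24. At CT12, 95 of them (0.421%) were higher and 58 (0.257%) were lower. The 3 ADX CT12 values and the 3 ADX CT24 values did not overlap for any of the 153 genes. Separation was not counted over the genes that were not called, so it adds no support to the calls. The changes were mostly modest: 62 genes differed by more than 1.5-fold and 38 by more than 2-fold, and the median absolute log2 change was 0.45. Protein-coding genes made up 129 of the calls. The genes with the smallest p-values were core clock genes and members of a list of clock outputs, which was chosen with results of these data known. The count of calls depended on single libraries. It was 98, 71 and 96 without ADX CT12 replicates 1, 2 and 3, and 111, 78 and 77 without ADX CT24 replicates 1, 2 and 3, and 47 of the 153 genes were called in all 6 of these fits.

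Of the 26 core clock genes tested, 12 were higher at ADX CT12 than at ADX CT24 and 2 were lower, against 0.421% and 0.257% of all tested genes. The 2 lower genes encode activators. Npas2, whose protein is a partner of BMAL1, had 3.87, 2.89 and 4.57 CPM in ADX CT12, against 12.7, 20.04 and 18.96 CPM in ADX CT24. The groups lay far apart, with ADX CT24 replicate 1 the lowest of its group. The log2 change was -2.18 ± 0.25 (SE; adjusted p = 3.16e-06), 4.54-fold lower at CT12. Arntl, which encodes BMAL1, had 8.004, 7.63 and 10.9 CPM in ADX CT12, against 21.1, 29.3 and 29.6 CPM in ADX CT24. Again ADX CT24 replicate 1 was the lowest of its group and ADX CT12 replicate 3 the highest of its own. The log2 change of Arntl was -1.59 ± 0.16 (adjusted p = 2.31e-07). Clock itself differed little, with 52.4, 49.4 and 53.7 CPM in ADX CT12 and 53.0, 65.3 and 64.9 CPM in ADX CT24 (log2 change -0.24 ± 0.07, adjusted p = 0.132), and the groups overlapped. Arntl2, the paralogue of Arntl, had a log2 change of 0.01 ± 0.17.

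The repressors made up the largest group of clock genes that were higher, 7 of 13 tested, with a median log2 change of 0.55 over the list against -0.01 over all tested genes. Per2, a period gene whose protein blocks the BMAL1 complex, had 97.7, 91.97 and 69.1 CPM in ADX CT12, against 33.5, 29.3 and 29.2 CPM in ADX CT24. Even the lowest ADX CT12 library was above every ADX CT24 library. The log2 change was 1.49 ± 0.14 (adjusted p = 1.08e-07), 2.81-fold. Its paralogue Per3 had 152, 145 and 136 CPM in ADX CT12, against 65.8, 45.3 and 44.9 CPM in ADX CT24. ADX CT24 replicate 1 stood above the other libraries of its group (log2 change 1.48 ± 0.16, adjusted p = 1.59e-06). Per1, which is also a direct glucocorticoid target, had 130, 132 and 85.3 CPM in ADX CT12, against 55.1, 52.5 and 52.9 CPM in ADX CT24. ADX CT12 replicate 3 was well below the other libraries of its group, while the ADX CT24 libraries lay close together (log2 change 1.11 ± 0.14, adjusted p = 2.82e-05).

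Ciart, the gene of the BMAL1 repressor CHRONO, had 15.5, 16.7 and 9.78 CPM in ADX CT12, against 4.65, 3.45 and 3.98 CPM in ADX CT24, with a log2 change of 1.79 ± 0.17 (adjusted p = 2.31e-07). The E-box repressors Bhlhe40 and Bhlhe41 (DEC proteins) changed less. Bhlhe40 had 78.2, 74.1 and 70.6 CPM in ADX CT12 and 49.7, 43.5 and 40.6 CPM in ADX CT24 (log2 change 0.74 ± 0.09, adjusted p = 2.47e-05). Bhlhe41 had a log2 change of 0.65 ± 0.11 (adjusted p = 9.35e-04). Of the cryptochromes, the partners of the period proteins, Cry2 rose and Cry1 was not called. Cry2 had 91.2, 93.9 and 79.1 CPM in ADX CT12, against 65.6, 56.0 and 58.6 CPM in ADX CT24 (log2 change 0.55 ± 0.07, adjusted p = 4.48e-05). Cry1 had 19.8, 19.7 and 20.05 CPM in ADX CT12, and 15.12, 19.96 and 19.7 CPM in ADX CT24, and the groups overlapped (log2 change 0.12 ± 0.11, adjusted p = 0.642). The kinase genes Csnk1d and Csnk1e, whose products mark period proteins for decay, had log2 changes of 0.12 ± 0.03 and 0.13 ± 0.05 and did not pass the test (adjusted p = 0.0857 and 0.253). Fbxl21 and Timeless had log2 changes of -0.06 and 0.02.

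Both REV-ERB genes were higher at CT12 and the ROR genes Rora and Rorb were not called. Nr1d1 (REV-ERB alpha) had 141, 124 and 93.4 CPM in ADX CT12, against 46.8, 32.5 and 29.6 CPM in ADX CT24 (log2 change 1.71 ± 0.22, adjusted p = 2.47e-05). Nr1d2 (REV-ERB beta) had 169, 159 and 129 CPM in ADX CT12, against 82.5, 64.3 and 57.4 CPM in ADX CT24 (log2 change 1.16 ± 0.14, adjusted p = 1.55e-05). In both genes the groups stood apart, with ADX CT12 replicate 3 lowest and ADX CT24 replicate 1 highest of their groups. The log2 changes of the ROR activators were 0.11 ± 0.08 for Rora and -0.12 ± 0.17 for Rorb.

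All 3 PAR bZIP genes were higher at CT12. Dbp, the D-box activator, showed the largest change of any core clock gene: 121, 109 and 87.9 CPM in ADX CT12, against 29.4, 12.7 and 14.8 CPM in ADX CT24. ADX CT24 replicate 1 stood well above the other libraries of its group, and the groups did not overlap (log2 change 2.47 ± 0.27, adjusted p = 1.21e-06, 5.56-fold). Tef had 336, 324 and 271 CPM in ADX CT12, against 168, 122 and 124 CPM in ADX CT24 (log2 change 1.17 ± 0.12, adjusted p = 3.38e-07). Hlf had 107, 115 and 107 CPM in ADX CT12, against 81.2, 78.1 and 72.4 CPM in ADX CT24, and its call (log2 change 0.51 ± 0.12, adjusted p = 0.0322) was lost when any of the 6 libraries was left out. Nfil3, the D-box repressor, went the other way without passing the test: 7.37, 8.13 and 8.48 CPM in ADX CT12 and 9.004, 12.17 and 13.5 CPM in ADX CT24 (log2 change -0.53 ± 0.13, adjusted p = 0.0531).

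**Figure D2:**
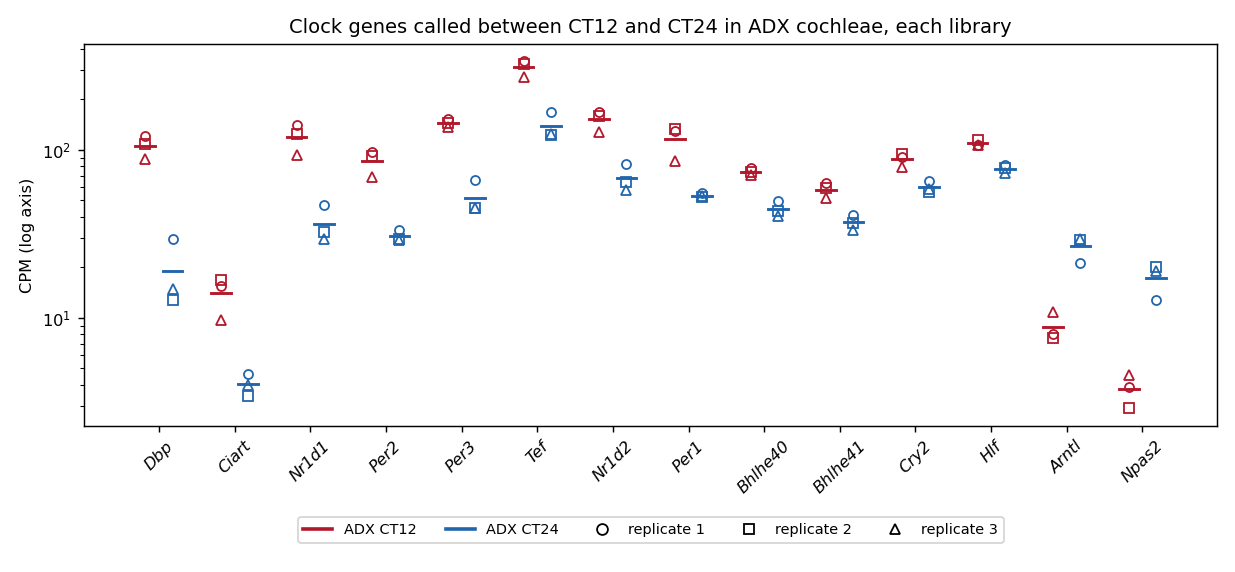
CPM (log axis) of the 14 core clock genes called between the times, with ADX CT12 in red left of ADX CT24 in blue; symbols are single libraries and bars the means of 3. The groups do not overlap for any gene, ADX CT12 replicate 3 (triangles) is the ADX CT12 library nearest to CT24 and ADX CT24 replicate 1 (circles) the ADX CT24 library nearest to CT12 in all 14.

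One library of each group lay nearest to the other group in all 14 called clock genes. These genes act in linked loops, so they are not 14 independent observations. ADX CT12 replicate 3 had the lowest CPM of its group for the 12 higher genes and the highest for Npas2 and Arntl. It was the lowest of its group in 7802 of all 22556 tested genes. ADX CT24 replicate 1 had the highest CPM of its group for the 12 higher genes and the lowest for those 2. For that library the share of all genes was not counted. These libraries also had the highest summed CPM of B lymphocyte markers, 2362 in ADX CT12 replicate 3 against 1537 and 1640 in the others of its group, and 2809 in ADX CT24 replicate 1 against 1867 and 1904. The part of those cells was not tested. B lymphocyte markers were not the only list to set these libraries apart. ADX CT12 replicate 3 and ADX CT24 replicate 1 were also highest of their groups in the sums of collagen and matrix genes (6438 and 5437). The same held for immediate early genes (702.7 and 678.6), cold-inducible genes (780.9 and 711.3) and ribosomal protein genes (7472 and 7448). Of the 14 calls, 13 held in all 6 fits that left out a library. With ADX CT12 replicate 1 and ADX CT24 replicates 1 and 2 left out together, 11 held, and Per1, Bhlhe41 and Hlf did not (adjusted p = 0.08, 0.0692 and 0.342).

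Across the 6 times in ADX, CT12 and CT24 were near the extremes of most of these genes. Of the 12 higher genes, 11 had their highest ADX mean at CT12 and 10 their lowest at CT24. Npas2 and Arntl had their lowest mean at CT12 and their highest at CT24. These genes were chosen for their difference between CT12 and CT24 in the same libraries, which favours extremes at those times. The share of all tested genes with such extremes was not counted, so these counts add no support to the calls. Per2 averaged 32.7, 46.0, 86.2, 80.5, 58.9 and 30.7 CPM from CT04 to CT24. Arntl averaged 21.95, 13.4, 8.83, 13.1, 23.2 and 26.7 CPM over the same times. Nr1d1 was the exception at the top, with 133 ± 35.9 CPM at CT08 and 119 ± 23.9 CPM at CT12 (SD, n = 3 each), which overlapped, and its lowest mean was at CT20 (26.0 ± 11.6 CPM). Per1 was lowest at CT04 (46.7 ± 1.96 CPM, against 53.5 ± 1.36 CPM at CT24).

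**Figure D3:**
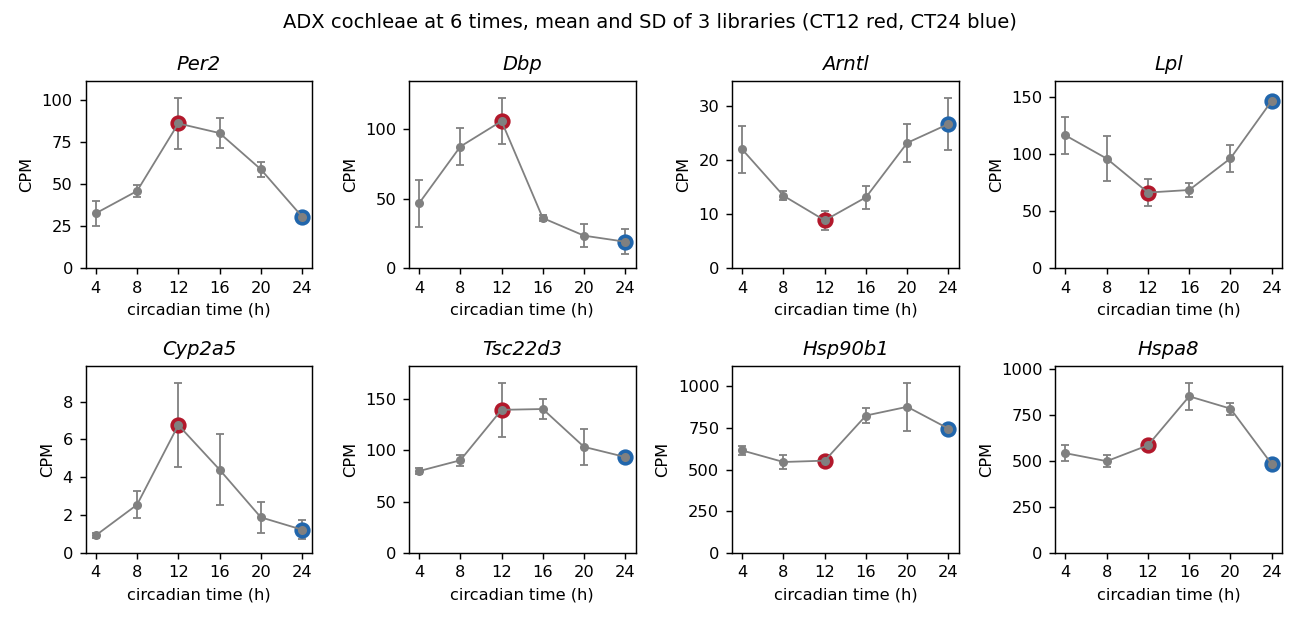
Mean CPM with SD (n = 3) of Per2, Dbp, Arntl, Lpl, Cyp2a5, Tsc22d3, Hsp90b1 and Hspa8 in ADX cochleae at 6 circadian times, with CT12 in red and CT24 in blue. Per2 and Dbp are highest at CT12, Arntl and Lpl are lowest there, and Hsp90b1 and Hspa8 have their highest means (877 and 852 CPM) at CT20 and CT16, between the times compared.

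Promoter windows of 300 bases (250 before to 50 after the annotated start) from RefSeq on GRCm38.p6 matched 12 of the 14 called clock genes, in 15 windows. They were searched on both strands for the E-box CACGTG, the D-box TTATGTAA or TTACGTAA and the ROR element core TAGGTCA. An E-box stood in 5 of the 15 windows, from 4 genes, against 7.15% of all 32851 windows. A D-box stood in 1 window (1.056% of all) and the ROR element core in 1 (2.606% of all). The windows of Dbp, Nr1d1, Nr1d2, Npas2, Cry2 and Hlf held none of these letters. The windows that did are shown so that the letters can be read beside the direction of each gene, 5′ to 3′ on the strand of the gene, with the motif in capitals; for Tef the upstream of its 2 windows with a match is given. They lie at chr3:95882179-95882478 (minus strand, Ciart, E-boxes from bases 135, 193 and 207), chr15:81802423-81802722 (plus strand, Tef, E-box from base 124), chr11:69098699-69098998 (plus strand, Per1, E-box from base 85), chr6:145865371-145865670 (minus strand, Bhlhe41, E-box from base 98), chr4:151044616-151044915 (minus strand, Per3, D-boxes from bases 46 and 93) and chr7:113207261-113207560 (plus strand, Arntl, ROR element core from base 281).
Ciart: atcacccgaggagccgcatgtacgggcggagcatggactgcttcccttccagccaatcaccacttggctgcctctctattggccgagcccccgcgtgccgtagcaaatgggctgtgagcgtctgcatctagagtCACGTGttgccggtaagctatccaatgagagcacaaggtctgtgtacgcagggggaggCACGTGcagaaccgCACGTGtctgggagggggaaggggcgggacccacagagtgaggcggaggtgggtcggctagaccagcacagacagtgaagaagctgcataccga
Tef: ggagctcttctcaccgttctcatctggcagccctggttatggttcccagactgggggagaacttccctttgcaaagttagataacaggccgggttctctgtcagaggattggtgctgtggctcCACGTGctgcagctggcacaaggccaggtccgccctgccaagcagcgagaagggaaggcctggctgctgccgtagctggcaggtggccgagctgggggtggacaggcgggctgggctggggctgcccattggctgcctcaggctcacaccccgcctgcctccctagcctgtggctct
Per1: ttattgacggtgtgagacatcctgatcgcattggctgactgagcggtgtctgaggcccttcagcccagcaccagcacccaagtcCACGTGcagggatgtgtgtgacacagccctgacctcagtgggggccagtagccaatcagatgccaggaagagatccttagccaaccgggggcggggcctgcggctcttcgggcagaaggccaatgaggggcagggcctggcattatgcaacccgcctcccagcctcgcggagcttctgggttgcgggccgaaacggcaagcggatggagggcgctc
Bhlhe41: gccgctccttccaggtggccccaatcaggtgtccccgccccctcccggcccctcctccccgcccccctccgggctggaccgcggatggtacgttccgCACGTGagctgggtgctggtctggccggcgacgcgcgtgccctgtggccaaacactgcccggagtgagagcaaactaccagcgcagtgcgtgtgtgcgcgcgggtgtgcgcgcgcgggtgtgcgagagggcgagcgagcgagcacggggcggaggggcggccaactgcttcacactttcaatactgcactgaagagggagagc
Per3: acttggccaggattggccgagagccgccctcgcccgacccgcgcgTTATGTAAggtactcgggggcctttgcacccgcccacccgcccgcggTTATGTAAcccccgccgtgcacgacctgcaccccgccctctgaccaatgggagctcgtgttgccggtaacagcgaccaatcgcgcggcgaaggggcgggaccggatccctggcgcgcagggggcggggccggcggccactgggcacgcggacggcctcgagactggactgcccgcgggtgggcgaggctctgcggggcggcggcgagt
Arntl: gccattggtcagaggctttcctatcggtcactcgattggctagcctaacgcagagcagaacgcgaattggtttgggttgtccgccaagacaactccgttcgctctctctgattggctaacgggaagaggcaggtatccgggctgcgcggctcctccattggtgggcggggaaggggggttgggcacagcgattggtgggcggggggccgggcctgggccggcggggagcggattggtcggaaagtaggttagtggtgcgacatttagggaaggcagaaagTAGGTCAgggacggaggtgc
The E-box genes shown were all higher at ADX CT12, as were 12 of the 14 called clock genes. Arntl, the gene with the ROR element core, was lower, but another window of Arntl held no match. Npas2, the other lower gene, held none of these letters. A match describes these letters only, and binding was not measured.

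Among 26 tested genes listed as clock-controlled outputs, 8 were higher and 1 was lower at ADX CT12, against 0.421% and 0.257% of all tested genes. The median log2 change of the list was 0.11. The list was chosen with results of these data known, so its count of calls is not independent evidence. Spon2, which encodes the matrix protein spondin-2, was the lower one: 2.46, 2.64 and 2.51 CPM in ADX CT12, against 6.88, 7.37 and 7.16 CPM in ADX CT24. Replicates lay within a narrow band in both groups (log2 change -1.49 ± 0.14, adjusted p = 1.27e-07). Tspan4, a tetraspanin membrane protein gene, had 58.5, 54.6 and 49.7 CPM in ADX CT12, against 31.2, 25.6 and 26.0 CPM in ADX CT24 (log2 change 0.97 ± 0.09, adjusted p = 9.89e-08, the smallest of all genes). Usp2, which encodes a deubiquitinase, had 48.0, 48.6 and 41.3 CPM in ADX CT12, against 28.1, 29.5 and 26.3 CPM in ADX CT24 (log2 change 0.72 ± 0.10, adjusted p = 4.06e-05). The list also held Por, Cyp2a5 and Tsc22d3, described with their own groups, and Cys1, Coq10b and Marveld1, with log2 changes of 0.75, 0.41 and 0.23. Outside the list, Angptl2, the gene of a secreted angiopoietin-like protein, had 42.0, 44.4 and 40.6 CPM in ADX CT12, against at most 24.9 CPM in each ADX CT24 library (log2 change 0.98 ± 0.12, adjusted p = 2.47e-05).

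Several enzymes that oxidize foreign and lipid compounds were higher at CT12. Of 20 tested cytochrome P450 and flavin monooxygenase genes, 4 were higher and none lower, against 0.421% and 0.257% of all tested genes. Positive log2 changes were found in 15 of the 20, against 10918 of all 22556, and the median was 0.26. Cyp2a5, a cytochrome P450, had 8.96, 6.83 and 4.48 CPM in ADX CT12, against 0.659, 1.35 and 1.66 CPM in ADX CT24. Levels were low, but the groups stood apart (log2 change 2.46 ± 0.35, adjusted p = 1.06e-04, 5.50-fold). Reads of Cyp2a5 may be shared with its near-identical neighbour Cyp2a4, so the value is uncertain. The flavin monooxygenase genes followed: Fmo2 had 29.8, 33.2 and 22.7 CPM in ADX CT12, against 12.0, 12.6 and 15.4 CPM in ADX CT24 (log2 change 1.1 ± 0.17, adjusted p = 3.19e-04), and Fmo1 had a log2 change of 0.71 ± 0.10 (adjusted p = 1.41e-04). Por, which passes electrons to the P450 enzymes, had 157, 144 and 149 CPM in ADX CT12, against 108, 109 and 97.1 CPM in ADX CT24 (log2 change 0.52 ± 0.06, adjusted p = 1.84e-06). Without ADX CT24 replicates 1 and 2, Cyp2a5 and Fmo2 were no longer called (adjusted p = 0.136 and 0.232), and Por and Fmo1 were.

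The largest change of any named gene that passed the test was that of Tcap, which encodes the sarcomere protein titin-cap. It had 22.3, 15.8 and 9.33 CPM in ADX CT12, against 4.06, 1.64 and 1.49 CPM in ADX CT24 (log2 change 2.71 ± 0.46, adjusted p = 0.00143). Its order in ADX CT12 was that of the muscle marker score, which was 2.69, 0.91 and 0.36 in replicates 1, 2 and 3. How much of the Tcap RNA came from muscle tissue was not measured in any library. In sham cochleae, where the summed CPM of muscle markers was 137 to 162 at CT12 and 135 to 153 at CT24, Tcap had a log2 change of 2.78 ± 0.46. Without ADX CT24 replicates 1 and 2 its adjusted p was 0.0638. Klk11, a kallikrein-related protease gene, had 1.73, 1.65 and 1.88 CPM in ADX CT12, against 0.549, 0.337 and 0.900 CPM in ADX CT24 (log2 change 1.52 ± 0.35, adjusted p = 0.0345), and was called in only 1 of the 6 fits without a library.

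Lpl was lower at CT12. It encodes lipoprotein lipase, which releases fatty acids from circulating lipoproteins. Lpl had 54.5, 66.5 and 77.4 CPM in ADX CT12, against 148, 147 and 144 CPM in ADX CT24. The ADX CT24 libraries were nearly equal, and each was above all ADX CT12 libraries (log2 change -1.15 ± 0.15, adjusted p = 2.60e-05, 2.21-fold lower at CT12). Lpl was called in all 6 fits without a library, and not without ADX CT12 replicate 1 and ADX CT24 replicates 1 and 2 together (adjusted p = 0.065). None of the other 14 genes of the lipoprotein and adipocyte lipid list was called; Plin4, a lipid droplet coat gene, had a log2 change of 0.77 ± 0.24 (adjusted p = 0.13). Of 8 adipocyte markers, 4 were highest of the 6 libraries in ADX CT24 replicate 1, against 3831 of all 22556 genes. Among them Ucp1, the brown fat uncoupling protein gene, was at 17.3 CPM there and between 0.208 and 1.41 CPM in the other 5, while Adipoq, the adiponectin gene, was at 43.6 CPM there and between 39.3 and 45.1 CPM in the other 5. The summed CPM of the 8 was 87.2 to 101.7 in ADX CT12 and 75.4 to 126.3 in ADX CT24, and the part of fat in the result for Lpl was not tested. Across the 6 ADX times Lpl averaged 116, 95.9, 66.1, 68.4, 96.1 and 146 CPM from CT04 to CT24. Dio2, the deiodinase that activates thyroid hormone, had 22.2, 20.5 and 28.3 CPM in ADX CT12, against 42.5, 49.9 and 56.3 CPM in ADX CT24 (log2 change -1.07 ± 0.22, adjusted p = 0.0104), and was called in 3 of the 6 fits without a library.

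Among the other genes lower at CT12, Rasl11a, a Ras-like small GTPase gene, had 1.001, 0.599 and 1.08 CPM in ADX CT12, against 2.23, 2.91 and 2.63 CPM in ADX CT24 (log2 change -1.52 ± 0.21, adjusted p = 6.84e-05). Adamts15, a matrix metalloprotease gene, had 5.50, 7.18 and 8.92 CPM in ADX CT12, against 14.7, 15.11 and 14.5 CPM in ADX CT24 (log2 change -1.03 ± 0.19, adjusted p = 0.00374). The groups were clear of each other for these genes, and Rasl11a was called in all 6 fits without a library and Adamts15 in 5. Without ADX CT24 replicates 1 and 2, Rasl11a was still called and Adamts15 was not (adjusted p = 0.19). The remaining ones were weakly expressed and less stable. Hkdc1 (a hexokinase), Pou2f3 (a transcription factor of tuft cells), Tshr (the thyrotropin receptor), Scd3 (a fatty acid desaturase) and the antisense RNA Etohd2 had log2 changes of -1.27, -1.17, -1.05, -0.83 and -0.78, and were called in 2, 1, 0, 4 and 1 of the 6 fits. Etohd2, with 1918 counts over the 36 libraries, lies opposite Isca1 and Tut7, with 88288 and 139569 counts, so its value may hold reads of those genes. Rbm45, an RNA-binding protein gene, changed little but evenly, with 22.8, 21.5 and 22.5 CPM in ADX CT12 and 28.1, 29.6 and 29.3 CPM in ADX CT24 (log2 change -0.38 ± 0.06, adjusted p = 6.04e-04).

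Several chaperones of the endoplasmic reticulum (ER), where secreted and membrane proteins fold, were lower at CT12. Of 26 tested ER folding and stress genes, 5 were lower and 1 was higher, against 0.257% and 0.421% of all tested genes. Their median log2 change was -0.05. Calr (calreticulin) had 485, 471 and 494 CPM in ADX CT12, against 613, 629 and 632 CPM in ADX CT24 (log2 change -0.37 ± 0.06, adjusted p = 0.0013). Hsp90b1, the ER member of the HSP90 family, had 556, 541 and 564 CPM in ADX CT12, against 735, 766 and 739 CPM in ADX CT24 (log2 change -0.43 ± 0.08, adjusted p = 0.00363). The spread within each group was a small part of the gap for both genes. The disulfide isomerase genes Pdia3 and Pdia6 had log2 changes of -0.34 ± 0.07 and -0.32 ± 0.07, and Canx (calnexin) of -0.19 ± 0.04. Herpud1, which acts in the removal of misfolded proteins from the ER, was the higher one, with 145, 135 and 132 CPM in ADX CT12, against 108, 103 and 104 CPM in ADX CT24 (log2 change 0.39 ± 0.05, adjusted p = 4.74e-05). Hspa5, the main ER chaperone gene, had a log2 change of -0.10 (adjusted p = 0.554). Over the 6 ADX times Calr averaged 533, 484, 483, 689, 751 and 625 CPM from CT04 to CT24, so that CT24 was below CT16 and CT20. Without ADX CT12 replicate 1 and ADX CT24 replicates 1 and 2, none of the 6 ER genes was called.

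The ER stress element (CCAAT, any 9 bases and CCACG, on either strand) stood in the windows of 4 of the 6 called ER genes, Calr, Hsp90b1, Pdia6 and Canx, against 0.119% of all 32851 windows, and in neither that of Pdia3 nor that of Herpud1. The windows of the genes with the smallest p among the 4 are shown with the element in capitals. They lie at chr8:84846882-84847181 (minus strand, Calr, 1 match from base 89) and chr10:86705395-86705694 (minus strand, Hsp90b1, matches from bases 39 and 144), on GRCm38.p6 from RefSeq.
Calr: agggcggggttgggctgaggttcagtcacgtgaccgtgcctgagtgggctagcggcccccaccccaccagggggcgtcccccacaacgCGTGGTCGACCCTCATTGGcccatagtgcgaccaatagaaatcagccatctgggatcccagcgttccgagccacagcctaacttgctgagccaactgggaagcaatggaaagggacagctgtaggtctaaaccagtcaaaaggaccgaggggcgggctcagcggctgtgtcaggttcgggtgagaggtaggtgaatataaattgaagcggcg
Hsp90b1: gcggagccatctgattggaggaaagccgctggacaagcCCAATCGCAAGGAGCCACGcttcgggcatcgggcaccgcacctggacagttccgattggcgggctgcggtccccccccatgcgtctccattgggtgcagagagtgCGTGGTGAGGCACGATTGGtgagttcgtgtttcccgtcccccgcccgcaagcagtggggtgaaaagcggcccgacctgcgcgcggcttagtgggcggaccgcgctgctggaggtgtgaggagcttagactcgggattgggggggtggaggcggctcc
The genes with the element were lower at CT12, as was Pdia3, whose window lacked these letters.

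Glucocorticoid-induced genes were mostly not called in ADX. Of 30 tested, 2 were higher (Per1 and Tsc22d3) and 1 was lower (Cdkn1a), against 0.421% and 0.257% of all tested genes. The median log2 change was 0.19. Tsc22d3, which encodes the glucocorticoid-induced leucine zipper GILZ, had 147, 162 and 110 CPM in ADX CT12, against 91.0, 95.8 and 94.0 CPM in ADX CT24. ADX CT12 replicate 3 was closest to the ADX CT24 libraries (log2 change 0.58 ± 0.12, adjusted p = 0.0141), and the call held in 1 of the 6 fits without a library. Cdkn1a, a cyclin-dependent kinase inhibitor gene, had 56.1, 54.3 and 61.4 CPM in ADX CT12, against 69.1, 79.7 and 82.4 CPM in ADX CT24 (log2 change -0.43 ± 0.08, adjusted p = 0.00272). Klf15, a Kruppel-like factor gene, did not pass, with 43.0, 45.1 and 33.3 CPM in ADX CT12 and 26.1, 31.0 and 25.7 CPM in ADX CT24 (log2 change 0.55 ± 0.14, adjusted p = 0.056).

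Fkbp5 and Zbtb16, established glucocorticoid targets named after their values were seen, overlapped between the times. Fkbp5, a chaperone of the glucocorticoid receptor, had 57.3, 72.6 and 44.7 CPM in ADX CT12, and 38.2, 62.8 and 37.2 CPM in ADX CT24. Zbtb16, a zinc finger transcription factor gene, had 59.8, 57.0 and 31.5 CPM in ADX CT12, and 26.7, 54.9 and 24.6 CPM in ADX CT24. In both genes ADX CT24 replicate 2 stood far above the other libraries of its group and ADX CT12 replicate 3 below those of its own. ADX CT24 replicate 2 was the highest of its group in 18 of the 30 genes, against 7364 of all 22556 tested genes, and it was also the library with the most Gh (130.1 CPM). The part of that tissue was not tested.

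The same comparison in sham cochleae, with the adrenals in place, called 1327 genes (5.88% of 22556), 928 higher and 399 lower at CT12. Of the 153 ADX calls, 115 were sham calls too (75.16% of the ADX calls and 8.666% of the sham calls). All but 1 of the 153 had the same sign in sham, against 70.14% of all tested genes, and the exception was Klk11 (log2 change 1.52 in ADX and -0.27 in sham). The median absolute log2 change of these genes, which were chosen in ADX, was 0.45 in ADX and 0.45 in sham. A sham call that missed the threshold in ADX was not thereby shown to differ: 695 of the 1327 sham calls had an unadjusted p under 0.05 in ADX. The sham count was 306, 1785 and 557 without sham CT12 replicates 1, 2 and 3, and 690, 298 and 1940 without sham CT24 replicates 1, 2 and 3. Replicates varied less in ADX than in sham by median SD of log2 CPM (0.121 at ADX CT12 and 0.102 at ADX CT24, against 0.134 at sham CT12 and 0.128 at sham CT24).

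The change itself was compared between ADX and sham. No gene (0% of 22556) passed the adjusted threshold in edgeR, with 981 at an unadjusted p under 0.05 and a smallest adjusted p of 0.437. Limma-voom called 0 and DESeq2 called 1, Rasl12. Rasl12, a Ras-like GTPase gene, had 29.1, 23.2 and 20.8 CPM in ADX CT12 and 22.03, 24.08 and 24.05 CPM in ADX CT24, and in sham 42.1, 33.6 and 34.7 CPM at CT12 and 22.9, 17.3 and 20.9 CPM at CT24. Its libraries overlapped in ADX and stood apart in sham (log2 change 0.06 ± 0.11 in ADX and 0.85 ± 0.11 in sham, unadjusted p of the difference 1.94e-05). It was also called without ADX CT12 replicate 1. Next came Ccdc124, Tsc22d3, Cox19 and Usp2, with unadjusted p from 1.31e-04 to 3.20e-04 and none adjusted below 0.999.

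All 14 called clock genes had a log2 change smaller in size in ADX than in sham, as had 13173 of all 22556 tested genes. Their median absolute value was 1.32 in ADX and 1.79 in sham. An unadjusted p of the difference under 0.05 was found for 7 of the 26 core genes, against 981 of all 22556, and none passed adjustment. Per2 rose by 1.49 ± 0.14 in ADX and 2.26 ± 0.14 in sham (difference -0.77 ± 0.19, unadjusted p = 3.67e-04, adjusted p = 0.999). Per1 rose by 1.11 ± 0.14 in ADX and 1.90 ± 0.15 in sham (difference -0.79 ± 0.20, unadjusted p = 5.69e-04). Nr1d1 was close in both, at 1.71 ± 0.22 in ADX and 1.79 ± 0.22 in sham. Per1 and Per2, 2 of the 13 repressors tested, were lower at ADX CT12 than at sham CT12 in every library. Both were higher at ADX CT24 than at sham CT24 in every library. These differences were not tested here, and such separation was not counted over other genes. Per1 had 85.3 to 132 CPM at ADX CT12 and 153 to 159 CPM at sham CT12. At CT24 it had 52.5 to 55.1 CPM in ADX and 40.1 to 42.6 CPM in sham. The summed CPM of the 13 repressors overlapped at CT12, with 901.5 to 1024 in ADX and 1021 to 1107 in sham. At CT24 the sums stood apart, with 639.6 to 690.3 in ADX and 601.8 to 626.2 in sham.

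Of the 30 glucocorticoid-induced genes, 17 were higher and 3 lower in sham, against 928 and 399 of all 22556 tested genes. Their median log2 change was 0.19 in ADX and 0.54 in sham. The log2 change in ADX lay below that in sham for 27 of the 30, against 11491 of all 22556 genes, and was smaller in size for 23, against 13173 of all. Of the 30, 13 had an unadjusted p of the difference under 0.05, against 981 of all 22556 genes, and none passed adjustment. Tsc22d3 rose by 0.58 ± 0.12 in ADX and 1.30 ± 0.12 in sham (difference -0.73 ± 0.17, unadjusted p = 1.97e-04, adjusted p = 0.999). The list names genes known to respond to the hormone, and it was chosen with results of these data known, so its direction is not independent evidence. Outside the list, the log2 change of Scd3 was larger in size in ADX, at -0.83 ± 0.16 in ADX and -0.11 ± 0.16 in sham (unadjusted p of the difference 0.00332).

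**Figure D4:**
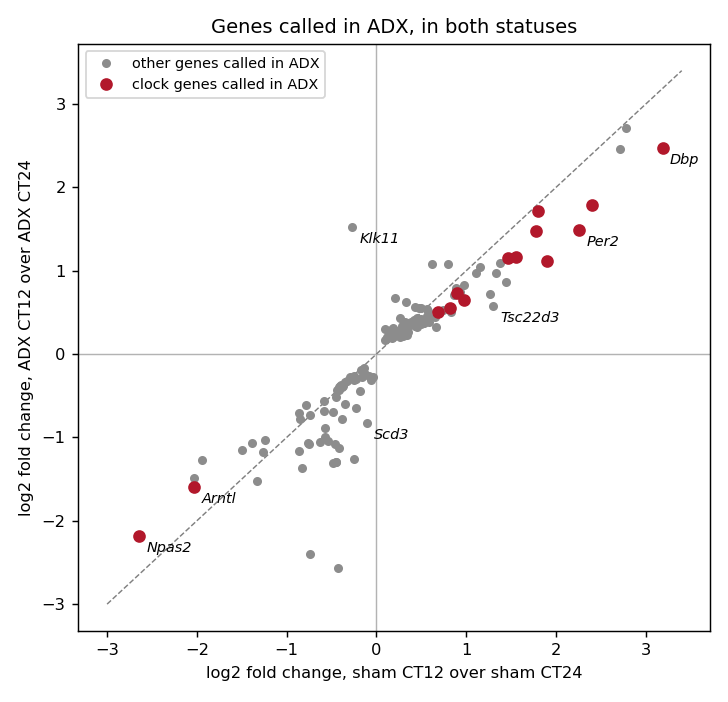
Log2 change of CT12 over CT24 of the 153 genes called in ADX, in sham (x axis) and in ADX (y axis); the dashed line marks equal changes and clock genes are red. All genes but Klk11 have the same sign in both, and the 14 clock genes lie nearer to 0 in ADX than in sham.

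Several pathways often linked to daily rhythms showed few or no calls. Of 23 heat shock and cytosolic chaperone genes, Hspa8 alone was higher, with 595, 594 and 567 CPM in ADX CT12, against 480, 466 and 503 CPM in ADX CT24 (log2 change 0.28 ± 0.07, adjusted p = 0.0492), a call lost whichever of the 6 libraries was left out. Hspa8 hosts small nucleolar RNA genes on which reads may be shared. Its highest ADX mean was at CT16, at 852 ± 74.0 CPM (SD, n = 3). Rbm3, a cold-inducible RNA-binding protein gene, had 187, 189 and 187 CPM in ADX CT12, above 158, 129 and 144 CPM in ADX CT24, without passing the test (log2 change 0.38 ± 0.11, adjusted p = 0.0897). Egr3 was the single call among 23 immediate early genes (log2 change 0.57 ± 0.13, adjusted p = 0.0376). Lox, which crosslinks collagen and elastin, was the single call among 24 matrix genes (log2 change -0.51 ± 0.12, adjusted p = 0.0294). Egr3 was called in 1 of the 6 fits without a library. No member was called of the lists of sterol and fatty acid synthesis (25 tested, median log2 change -0.03), NRF2 and antioxidant genes (20, 0.06), cell cycle (24, -0.06), chemokines and cytokines (20, -0.01), oxidative phosphorylation (25, 0.00) or cytosolic ribosomal proteins (25, 0.01).

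Lists of immune cells and of glia leaned to 1 side without calls. Of all 22556 tested genes, 10918 had positive log2 changes in ADX. All 20 interferon-stimulated genes had negative log2 changes in ADX, with a median of -0.40 in ADX and -0.60 in sham. Rtp4, the one with the smallest p, had 9.87, 6.29 and 7.40 CPM in ADX CT12 and 11.5, 11.6 and 17.8 CPM in ADX CT24 (log2 change -0.79 ± 0.28, adjusted p = 0.209). The summed CPM of the list was 493 to 627 in ADX CT12 and 644 to 750.2 in ADX CT24. That of T and NK lymphocyte markers was 78.5 to 89.5 in ADX CT12 and 96.9 to 101 in ADX CT24, and these sums did not overlap either. Of 15 Schwann cell and myelin genes, 14 had positive changes, with a median of 0.21, and none was called. Their summed CPM was 4749 to 5763 in ADX CT12 and 4431 to 4581 in ADX CT24, again without overlap. Sums of further lists stood apart too, such as that of the cold-inducible genes. Mbp, the myelin basic protein gene, overlapped, with 876, 1122 and 1461 CPM in ADX CT12 and 916, 841 and 854 CPM in ADX CT24. In sham, 6 of these myelin genes were called higher, against 928 of all 22556 tested genes.

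Genes of the hearing cells themselves showed no change that passed the test. None of 20 hair cell genes was called, with a median log2 change of -0.02, and Slc26a5 (prestin, the outer hair cell motor) had 3.59, 4.09 and 3.05 CPM in ADX CT12 and 4.03, 4.72 and 4.95 CPM in ADX CT24 (log2 change -0.35 ± 0.20, adjusted p = 0.446). None of 15 supporting cell and tectorial membrane genes, 19 stria vascularis genes or 18 spiral ganglion neuron genes was called, with medians of 0.11, -0.03 and 0.15. The nearest was Cldn11, the tight junction gene of strial basal cells, with 244, 211 and 194 CPM in ADX CT12, against 159, 168 and 160 CPM in ADX CT24 (log2 change 0.41 ± 0.10, adjusted p = 0.0515). In sham, 5 stria vascularis genes were called higher, against 928 of all 22556 tested genes. Of the 19, 9 had an unadjusted p of the difference under 0.05, against 981 of all 22556 genes, and none passed adjustment. Each of the 9 had the log2 change in ADX below that in sham, as had 561 of the 981. The change in ADX was smaller in size for 6 of the 9, and for 672 of the 981. No osteoblast, osteoclast, B lymphocyte, neutrophil, erythroid, middle ear, melanocyte or adipocyte marker was called.

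**Figure D5:**
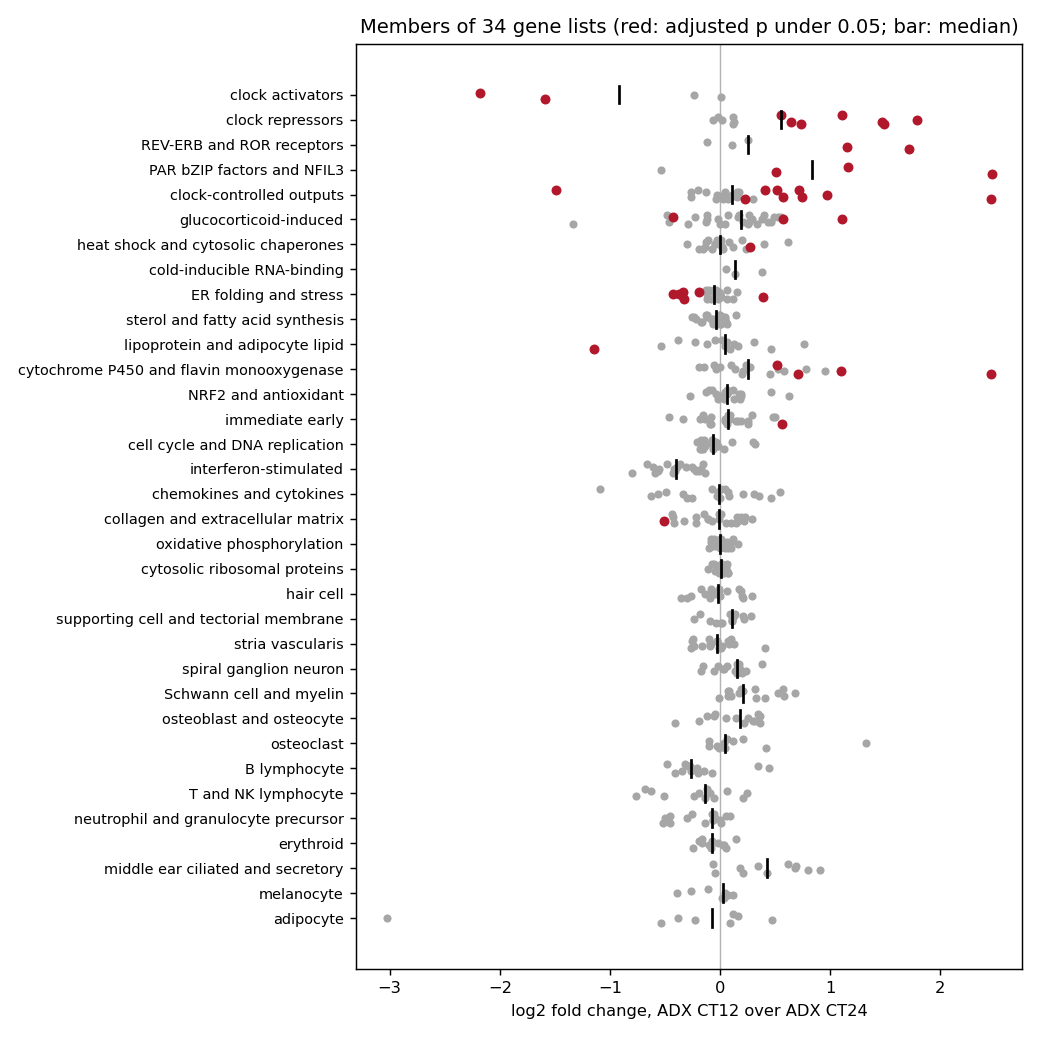
Log2 change of ADX CT12 over ADX CT24 of the tested members of 34 gene lists, 1 point per gene, with called genes in red and the median as a bar; the muscle and pituitary lists, which reach 5.91 and -4.44, are left out. Calls gather in the clock, output, P450 and ER lists, and no hair cell, stria vascularis or spiral ganglion neuron gene is called.

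Reads of overlapping genes limit some values. Of the 153 called genes, 30 overlap another gene that held over 10% as many counts, 22 of them on the opposite strand, and no source used here gives the strand setting of the counting. Dbp overlaps Sphk2, Nr1d1 overlaps Thra, Tspan4 overlaps Chid1, Angptl2 overlaps Ralgps1 and Ciart overlaps an antisense RNA. Per3 and Hsp90b1 overlap genes on their own strand, Camta1 and Gm15344. Some of the lower calls may not be separate signals. Gm11401 and a called ID without a symbol had the same CPM in each of the 6 libraries. The values of n-R5s67 differed from these only in ADX CT24 replicate 3 (1.142 against 1.107 CPM). Gm12265 and Gm12266, both opposite Tom1l2, had nearly equal CPM in every library. Whether these calls rest on the same reads was not tested.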

How the data were processed

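Per the labels' protocols, total cochlear RNA was made into stranded messenger RNA libraries and sequenced as single reads in pools of unstated membership. STAR 2.4.0i and mm10 come from the submitters' processing notes. The counting program and annotation were not given in the sources used here, nor was the strand setting. The authors deposited whole-number counts per Ensembl gene for 39017 genes and 36 libraries, with gene length, per the file headers, as the other column. Column times were 1 h before the labelled times in 30 columns, those of ADX CT12 and sham CT12 among them, and the labels were used. The CT24 columns carried the labelled time, so the mismatch falls on 1 side of the comparison. GENCODE M21 gave symbols for 37693 IDs (96.6%).

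Counts were tested in R 4.3.3 with edgeR 4.0.16 (TMM, filterByExpr, glmQLFTest) on 12 group means of all 36 libraries, with 24 residual degrees of freedom, adjusted over 22556 genes by Benjamini-Hochberg at 0.05. The filter left out 16461 genes with 0.0779% of counts. CPM were computed here from TMM-scaled library sizes, and scaling factors were 0.981 to 1.03. Chi-square tests between libraries of a group gave 5.03 to 15.4 per degree of freedom, far over sampling noise, and none was treated as a duplicate. The labels call the libraries separate samples without naming animals, and p-values reflect only the spread between samples.

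Named were the 12 highest and 12 lowest changes of called genes that averaged 1 CPM or more without overlap between groups, the 10 smallest p in each direction, the core clock genes, up to 4 members per other list, the 5 smallest p of the difference, and muscle and pituitary markers; pseudogenes and predicted genes were skipped, and some results are not reported here. The comparison, the gene lists and the rule were chosen with earlier results of these data known. Alternatives were DESeq2 1.42.0, limma-voom 3.58.1, other size factors, no filter, the replicate number as a block, fewer libraries, a muscle covariate and each library left out. The procedure was tested on simulated data. Figures were drawn with matplotlib 3.10.9.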

Additional observations from a re-analysis of the deposited data

How the results depend on the processing

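The count of 153 genes called in ADX (95 higher, 58 lower) was 134 with limma-voom, 161 with DESeq2's size factors and 110 in the 18 ADX libraries alone, of which 83 were higher and 27 lower. It moved by more than 1.5 times to 290 with DESeq2 (194 higher, 96 lower), to 81 in the 6 libraries alone (52 higher, 29 lower), to 64 with a muscle score as covariate (47 higher, 17 lower), to 32 without the ADX CT24 libraries of Gh over 50 CPM (23 higher, 9 lower) and to 29 without these and ADX CT12 replicate 1 (22 higher, 7 lower), the last chosen after seeing the data. In the last 2 fits a single ADX CT24 library was assumed to vary like the other groups. Without a filter it was 106 (68 higher, 38 lower). With each library left out it was 71 to 111 (54 to 68 higher, 14 to 52 lower). The share of higher calls, 62.09%, was 75.45% in the 18 ADX libraries, 73.44% with the muscle covariate and 53.15 to 80.28% with a library left out; another scaling gave 61.49%. The replicate number as a block gave 146 genes, 132 of them among the 153 (93 higher, 53 lower); same-numbered libraries deviated together with correlations of -0.148, 0.0246 and -0.0779, so the numbers were not taken as pairs. The genes named for the smallest p were 20, in equal numbers from the higher and the lower genes. Of these 20, 19 or 20 were called in every setting with more than a single ADX CT24 library. The sham count of 1327 was 1665 with DESeq2, 855 without a filter and 298 to 1940 with a sham library left out. The difference between ADX and sham gave 0 to 1 calls, with 1 under DESeq2 and 1 without ADX CT12 replicate 1. Of 41 called genes tested under each alternative, 17 were called under all and none changed sign. Genes near 0 changed sign without the Gh-high libraries (Arntl2 -0.068), without the 3 libraries (Arntl2 -0.24, Rasl12 -0.13), with the muscle covariate (Rasl12 -0.024) and with a library left out (Arntl2 -0.15 to 0.10, Timeless -0.029 to 0.084, Rasl12 -0.080 to 0.17). The cause of these moves was not tested. Genes of few counts, such as those near 1 CPM, had SE of 0.2 and more on the log2 scale, and smaller changes were not detectable at this depth.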

Other observations

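Further called genes, named after their values were seen, lay outside the lists. Cbr2, the gene of a carbonyl reductase, had 136, 132 and 116 CPM in ADX CT12, against 47.2, 54.8 and 79.4 CPM in ADX CT24 (log2 change 1.08 ± 0.19, adjusted p = 0.00237). Bpifa1, a secretory marker of the middle ear, ran in the same order of libraries within both groups, at 3432, 2660 and 2495 CPM in ADX CT12 and 1416, 2062 and 2900 CPM in ADX CT24. The middle ear list had 9 of 11 positive log2 changes, against 10918 of all 22556 tested genes, a median of 0.43 and no call. Its summed CPM was 3680 to 4533 in ADX CT12 and 2410 to 4113 in ADX CT24, and the part of that tissue in the result for Cbr2 was not tested. The glutathione transferase genes Gstt2 and Gstt1 had log2 changes of 0.54 ± 0.09 and 0.36 ± 0.07. Cygb, the gene of the oxygen-binding cytoglobin, had a log2 change of 0.45 ± 0.07. Slc6a6, which encodes the taurine transporter, had 309, 302 and 280.0 CPM in ADX CT12, against 228, 209 and 225 CPM in ADX CT24 (log2 change 0.43 ± 0.07, adjusted p = 8.75e-04).

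Ccn2 (connective tissue growth factor), Tns2 (a focal adhesion tensin) and Timp3 (a metalloprotease inhibitor) were higher, with log2 changes of 0.51, 0.53 and 0.42 in ADX and 0.83, 0.74 and 0.50 in sham. Cldn5, the tight junction claudin of endothelium, had 18.2 to 24.4 CPM in ADX CT12, against 29.6 to 31.1 CPM in ADX CT24 (log2 change -0.56 ± 0.11, adjusted p = 0.0113), and Apold1, an endothelial early response gene, had a log2 change of -0.73 ± 0.16. Slc41a3, a magnesium transporter gene, had 26.8, 25.3 and 40.6 CPM in ADX CT12, against 47.8, 53.1 and 58.0 CPM in ADX CT24 (log2 change -0.78 ± 0.15, adjusted p = 0.00686).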
